A study of Mus musculus with 6 samples.

Results

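Tmem63a, Tmem63b, Tmem63c, Piezo1, Piezo2, Pkd1, Pkd2 and Trpm7 encode channels that respond to membrane tension or are discussed as doing so. These 8 genes were followed in RNA-Seq of 3 Nlk-KO libraries and 3 WT libraries of N2a cells, a mouse neuroblastoma line. The set was put together because Tmem63a was higher in Nlk-KO cells, so that difference is described here without a test. Each symbol had 1 row among the 26657 loci of the deposited table. Nlk-KO cells carried CRISPR mutations of Nlk, a kinase gene, and WT cells were their isogenic controls without these mutations. The paper describes paired guides with Cas9 nickase, and its methods list a Cas9 plasmid as an alternative to the nickase plasmid. N2a cells are polyploid, several KO clones were expanded, and the sources do not say which clone gave which library. The labels call the libraries biological replicates, and p-values measure only the spread between them, which may be technical.

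TMEM63 proteins are the animal relatives of the plant OSCA channels and open a cation pore when the membrane is stretched. Human TMEM63A variants cause a transient hypomyelination of infancy, and human TMEM63B variants cause epileptic encephalopathy. Piezo1 serves blood vessels, red cells and many other tissues, whereas Piezo2 serves touch and proprioception in sensory neurons. Polycystin-1 and polycystin-2, the products of Pkd1 and Pkd2, assemble in the primary cilium, and their loss causes polycystic kidney disease. Trpm7 joins a cation channel that passes magnesium, calcium and zinc to a kinase domain.

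The start regions of Tmem63a and Trpm7 are printed because these members had the largest differences and each window holds a searched motif. The windows run from 250 bases before to 50 bases after the RefSeq start (GRCm38.p6). Capitals in the Tmem63a window mark a CArG box, the site type bound by serum response factor. Capitals in the Trpm7 window mark TCACGTGA, the core of the CLEAR element that the study's lysosomal reporter carries, and a further E-box, CACGTG.
Tmem63a, chr1:180942268-180942567, plus strand: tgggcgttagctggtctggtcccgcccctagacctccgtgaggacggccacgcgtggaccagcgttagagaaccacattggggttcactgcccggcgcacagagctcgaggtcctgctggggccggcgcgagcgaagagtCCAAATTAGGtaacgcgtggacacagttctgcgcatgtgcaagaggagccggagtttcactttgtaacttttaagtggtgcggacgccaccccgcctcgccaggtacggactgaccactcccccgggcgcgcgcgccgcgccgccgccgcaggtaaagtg
Trpm7, chr2:126876212-126876511, minus strand: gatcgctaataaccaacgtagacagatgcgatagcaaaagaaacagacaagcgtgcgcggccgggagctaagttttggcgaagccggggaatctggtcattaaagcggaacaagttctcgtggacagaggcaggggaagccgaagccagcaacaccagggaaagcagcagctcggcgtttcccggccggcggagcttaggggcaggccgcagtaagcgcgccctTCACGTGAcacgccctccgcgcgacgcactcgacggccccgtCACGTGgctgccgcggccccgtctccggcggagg

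The CArG box of Tmem63a began 110 bases before the RefSeq start. It lies inside the GENCODE bounds of the gene given below, which begin further upstream. In the Trpm7 window the TCACGTGA match began 26 bases before the start, with an E-box inside it, and the other E-box began 16 bases after the start base. Both strands were searched. CArG boxes were in 1.33% and TCACGTGA in 1.87% of the 11630 windows of tested genes, and CACGTG was in 1163 of them. The windows of the other members in the RefSeq table, from Tmem63b, Tmem63c, Piezo1, Pkd1 and Pkd2, held none of these letters. A match is a description of the sequence and not evidence that a factor binds there.

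Gene bounds are those of GENCODE vM21 on GRCm38. Tmem63a lies on chromosome 1 from 180942344 to 180975112 (ENSMUSG00000026519, plus strand), and Trpm7 on chromosome 2 from 126791565 to 126876230 (ENSMUSG00000027365, minus strand). Tmem63b (45660171 to 45686905, minus strand) and Pkd1 (24549834 to 24596508, plus strand) share chromosome 17. Tmem63c is on chromosome 12 (87021340 to 87090043), Piezo1 on chromosome 8 (122481698 to 122551329) and Pkd2 on chromosome 5 (104459450 to 104505819). In the deposited table Tmem63b, Piezo1 and Pkd1 were listed with the same merged bounds as Mrpl14, Ctu2 and Tsc2. Whether counting used strand is not stated in any source read here, so fragments of shared stretches cannot be told apart. Mrpl14 (log2 fold change -0.14), Ctu2 (-0.03) and Tsc2 (-0.01) were not called.

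RNA was selected by poly(A), and the authors gave expression as FPKM, fragments scaled to transcript length and to the fragments of the library. Total reads are not known from FPKM, but the steps of low values put the depth of the other libraries at 0.971 to 1.28 times that of WT replicate 1. Testing used limma on log2(FPKM + 0.1) for loci whose mean reached 0.5 FPKM, and a locus was called at a Benjamini-Hochberg adjusted p under 0.05. The added 0.1 makes changes of low genes look smaller than they are. In bulk RNA, fewer cells of a type and less RNA per cell cannot be told apart. Nlk transcripts averaged 6.88 ± 0.119 FPKM in Nlk-KO cells and 16.2 ± 0.390 FPKM in WT cells (SD, n = 3 each; log2 fold change -1.22). The paper classed clones as KO by undetectable Nlk protein, which these transcript values do not measure. Neuroblastoma markers such as Chgb were present in every library, with sums of 1622 to 1639 FPKM over 13 markers in Nlk-KO cells and 1746 to 1831 FPKM in WT cells. Of these, Th averaged 0.415 FPKM in Nlk-KO cells and 4.19 FPKM in WT cells.

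One library stood apart by brain cell markers. Nlk-KO replicate 2 was the highest of the 6 libraries for 10 of 12 oligodendrocyte markers and 3 of 4 astrocyte markers. Mbp, a myelin protein gene, was at 1.21, 6.46 and 1.08 FPKM in replicates 1, 2 and 3 of Nlk-KO and at 1.89, 1.88 and 1.92 FPKM in replicates 1, 2 and 3 of WT. The 12 oligodendrocyte markers summed to 14.3, 26.7 and 14.6 FPKM in the Nlk-KO libraries and to 13.1 to 13.5 FPKM in the WT libraries, and none was at 0 in every library. Values of the members and lists without this library are therefore given beside the results.

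Tmem63a, a mechanosensitive channel of the plasma membrane and of lysosomes, was the member with the largest difference. It was at 10.1, 10.02 and 9.76 FPKM in replicates 1, 2 and 3 of Nlk-KO, against 1.75, 1.58 and 1.68 FPKM in replicates 1, 2 and 3 of WT. All Nlk-KO libraries lay far above all WT libraries, and replicate 2 of Nlk-KO, with its brain markers, lay between the other Nlk-KO libraries. The means were 9.96 ± 0.180 FPKM in Nlk-KO cells and 1.67 ± 0.0849 FPKM in WT cells (SD, n = 3 each), a ratio of 5.95. The log2 fold change was 2.51 (standard error 0.056) with all libraries and 2.50 without Nlk-KO replicate 2. Only 42 of the 12667 loci tested had a higher one. In Nlk-KO cells 45.0% of tested loci had a lower mean than Tmem63a, and in WT cells 14.4% did.

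**Figure D1:**
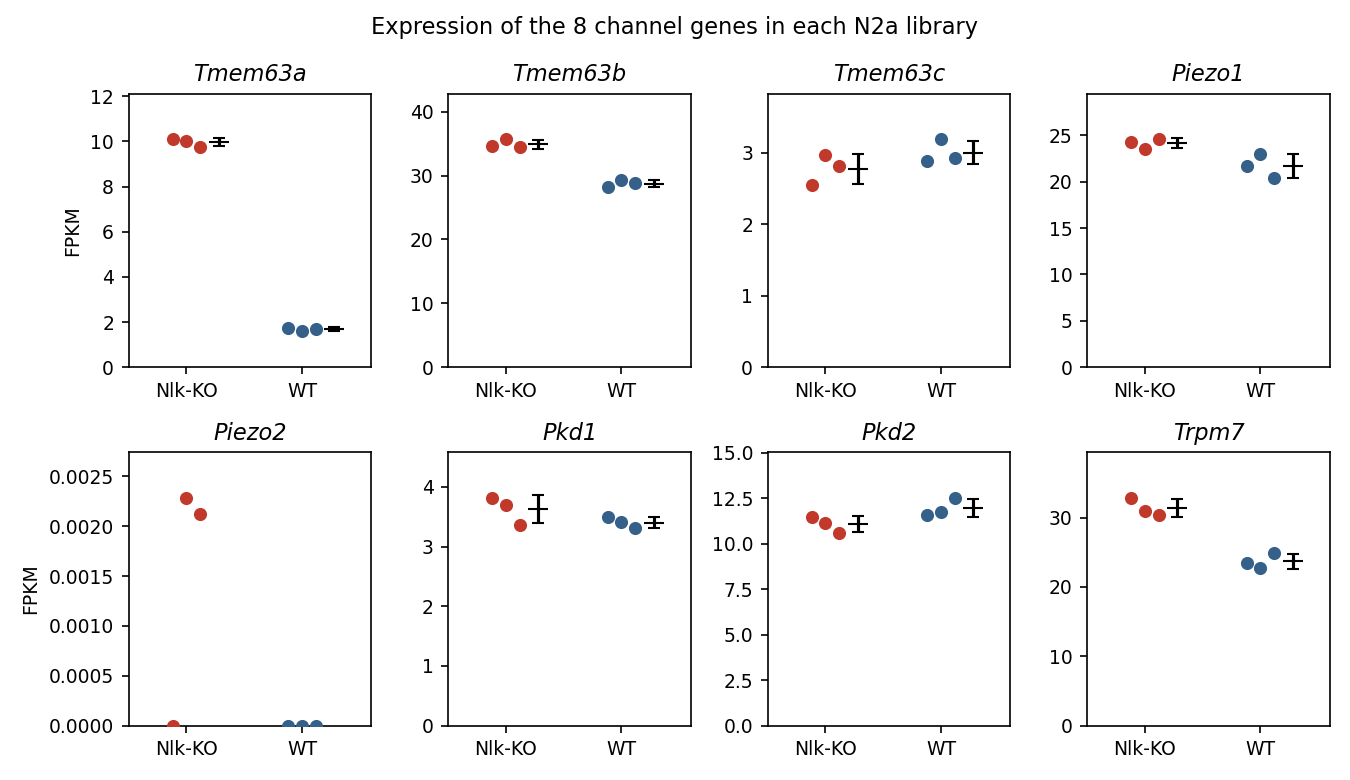
FPKM of the 8 channel genes in each library, with Nlk-KO (red) left of WT (blue) and the mean and SD of 3 libraries as a black bar; each panel has its own axis from 0, and Piezo2 is drawn without mean and SD. Tmem63a at 9.76 to 10.1 FPKM in Nlk-KO libraries stands clear of its 1.58 to 1.75 FPKM in WT libraries, and the other members differ by far less.

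Tmem63b, the paralogue with roles in inner ear hair cells and lung epithelium of mice, was the most abundant member. It was at 34.6, 35.7 and 34.4 FPKM in replicates 1, 2 and 3 of Nlk-KO, against 28.1, 29.2 and 28.9 FPKM in replicates 1, 2 and 3 of WT. The groups did not overlap, and the means of 34.9 ± 0.707 and 28.8 ± 0.556 FPKM in Nlk-KO and WT cells (SD, n = 3 each) gave a log2 fold change of 0.28 with a standard error of 0.032 (limma, adjusted p = 6.18e-04). Without Nlk-KO replicate 2 it was 0.26 (adjusted p = 0.00285). Over the alternatives the adjusted p ran from 5.42e-04 to 1.00. The call ended with libraries rescaled to equal sums (0.541, at a log2 fold change of 0.34) and with a change of more than 1.2-fold required (1.00). It held with libraries rescaled by the median ratio (5.96e-04).

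Tmem63c, linked in humans to hereditary spastic paraplegia, stayed at a low level in both genotypes. It was at 2.55, 2.97 and 2.82 FPKM in replicates 1, 2 and 3 of Nlk-KO, against 2.89, 3.19 and 2.92 FPKM in replicates 1, 2 and 3 of WT. These ranges overlapped. The log2 fold change of -0.11 (95% interval -0.29 to 0.07, adjusted p = 0.312 from limma) did not pass the threshold, nor did -0.16 without Nlk-KO replicate 2 (adjusted p = 0.199).

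The makeup of the Tmem63 transcripts therefore differed between genotypes. FPKM are divided by transcript length, so the paralogues can be added. Their sum was 47.2, 48.7 and 47.0 FPKM in replicates 1, 2 and 3 of Nlk-KO, against 32.8, 34.0 and 33.5 FPKM in replicates 1, 2 and 3 of WT. Tmem63a made up 20.9% ± 0.426 of this sum in Nlk-KO cells and 5.01% ± 0.345 in WT cells (SD, n = 3 each). Tmem63b still held the largest share, 73.3% ± 0.0662 in Nlk-KO cells and 86.0% ± 0.208 in WT cells. The shares of Tmem63c were 5.83% ± 0.372 in Nlk-KO cells and 8.98% ± 0.352 in WT cells. The difference in the share of Tmem63a was 15.9 percentage points, and 16.1 without Nlk-KO replicate 2. Since Tmem63a was chosen for its difference, these shares are a description.

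**Figure D2:**
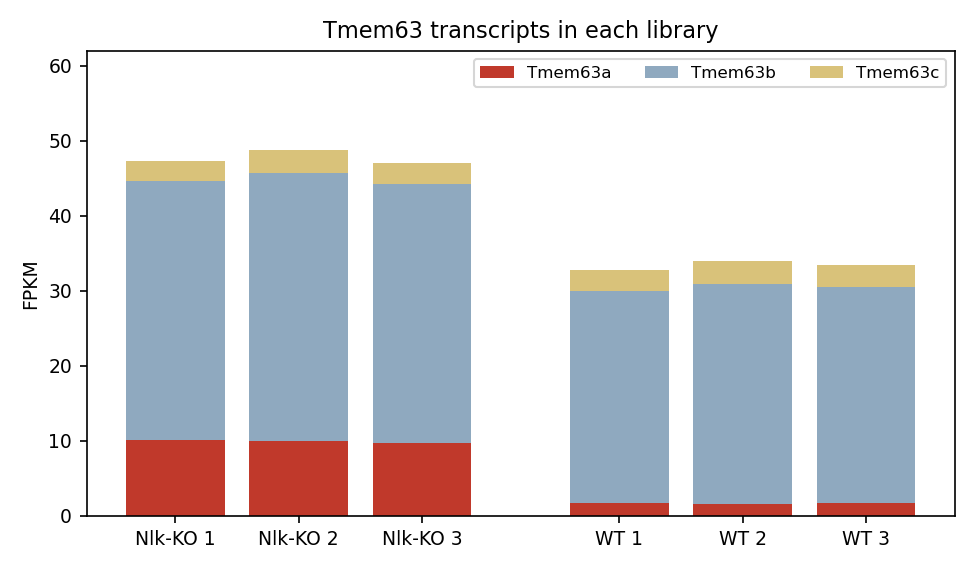
Stacked FPKM of Tmem63a (red), Tmem63b (blue) and Tmem63c (yellow) in each library, with Nlk-KO left of WT. The summed height is 47.0 to 48.7 FPKM in Nlk-KO libraries and 32.8 to 34.0 FPKM in WT libraries, and Tmem63a is 20.9% of the sum in Nlk-KO cells and 5.01% in WT cells.

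Trpm7, which carries magnesium and zinc into cells, had the next largest difference. It was at 32.9, 31.0 and 30.4 FPKM in replicates 1, 2 and 3 of Nlk-KO, against 23.5, 22.7 and 24.8 FPKM in replicates 1, 2 and 3 of WT. The groups were separate, with means of 31.4 ± 1.30 FPKM in Nlk-KO cells and 23.7 ± 1.09 FPKM in WT cells (SD, n = 3 each). The log2 fold change was 0.41 (standard error 0.047, adjusted p = 6.19e-04 from limma), and 0.42 without Nlk-KO replicate 2 (adjusted p = 0.00345). Chromosome 2, on which Trpm7 lies, was higher as a whole, with a median log2 fold change of 0.19 over 1042 tested loci. Relative to that median Trpm7 was higher by 0.22 on the log2 scale (adjusted p = 0.0122, against 5.38e-04 to 0.204 over the alternatives).

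Piezo1, the tension sensor of vessels and red cells, differed by little. It was at 24.3, 23.6 and 24.6 FPKM in replicates 1, 2 and 3 of Nlk-KO, against 21.6, 23.0 and 20.4 FPKM in replicates 1, 2 and 3 of WT. The lowest Nlk-KO library, at 23.6 FPKM, was close to the highest WT library, at 23.0 FPKM. The log2 fold change was 0.16 (standard error 0.049, adjusted p = 0.0403 from limma, and 0.0174 to 1.00 over the alternatives). This call did not hold without Nlk-KO replicate 1 (0.103), Nlk-KO replicate 2 (0.0589), Nlk-KO replicate 3 (0.115), WT replicate 1 (0.102) or WT replicate 3 (0.0767). It held without WT replicate 2.

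Piezo2, the touch channel of sensory neurons, lies on chromosome 18 from 63010213 to 63387183. All WT libraries and Nlk-KO replicate 1 listed it at 0. The values of Nlk-KO replicates 2 and 3 were 0.00229 FPKM and 0.00212 FPKM. Multiplied by relative depth, both values came to 0.0027, as the same small number of fragments in each library would give. Piezo2 was below the filter and is the 1 member that was not tested. At this depth no difference in Piezo2 was detectable.

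The polycystins did not pass the threshold. Pkd1, whose product is the large receptor-like subunit, was at 3.82, 3.70 and 3.36 FPKM in replicates 1, 2 and 3 of Nlk-KO, against 3.49, 3.41 and 3.30 FPKM in replicates 1, 2 and 3 of WT. The ranges overlapped, and the log2 fold change was 0.09 (95% interval -0.06 to 0.24, adjusted p = 0.324 from limma), and 0.07 without Nlk-KO replicate 2. Pkd2, whose product is the channel subunit, was at 11.5, 11.2 and 10.6 FPKM in replicates 1, 2 and 3 of Nlk-KO, against 11.6, 11.8 and 12.5 FPKM in replicates 1, 2 and 3 of WT. These values did not overlap but lay close together, and the log2 fold change of -0.11 had a 95% interval of -0.22 to 0.00 (adjusted p = 0.109) and was -0.12 without Nlk-KO replicate 2. Loci of chromosome 5, where Pkd2 lies, had a median log2 fold change of -0.11, and Pkd2 differed from it by -0.01.

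Of the 7 members in the fit, 4 were called higher in Nlk-KO cells, Tmem63a (by choice of the set) with Tmem63b, Trpm7 and Piezo1. By limma 0 were lower (0 also at an unadjusted p under 0.05) and 3 were not called. Counts of members here include Tmem63a, whose call is not a test. Of the 6 other members tested 3 were called higher. Over all 12667 loci 18.6% were called higher and 18.5% lower, 37.1% in all, and since the set was chosen for Tmem63a nothing is read from the members' count. Without Nlk-KO replicate 2, 3 members were higher and 4 were not called. With that library left out, 2197 of all 12648 loci tested were higher and 2032 lower, beside 2356 and 2341 of 12667 with all libraries. Libraries did not overlap in 4 members with Nlk-KO above and in 1, Pkd2, with Nlk-KO below, where 25.1% and 25.9% of all loci did so, 51.0% in all. The median log2 fold change of the tested members was 0.16, and that of all loci was -0.01.

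**Figure D3:**
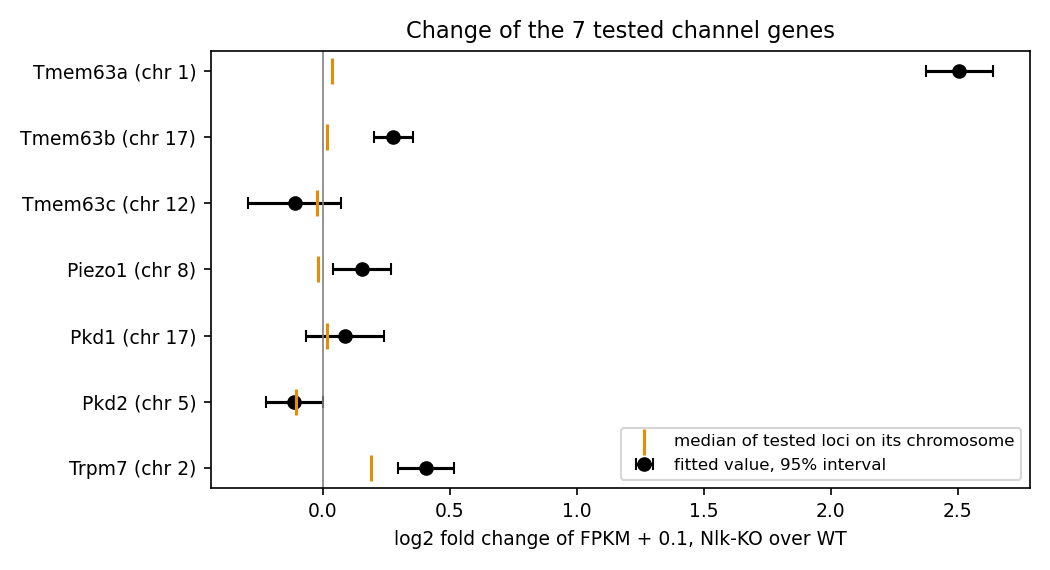
Log2 fold change of FPKM + 0.1 in Nlk-KO over WT cells for the 7 tested members, with the fitted value and its 95% interval as black points and bars and the median of all tested loci on the same chromosome as orange marks. Tmem63a at 2.51 lies far to the right, Trpm7 (0.41) lies right of its chromosome's median of 0.19, and Pkd2 lies on that of chromosome 5 (-0.11).

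The order of the members by level changed at 1 gene. In Nlk-KO cells the order from high to low was Tmem63b, Trpm7, Piezo1, Pkd2, Tmem63a, Pkd1, Tmem63c and Piezo2, and the libraries of neighbours in this order did not overlap. In WT cells Tmem63a stood below Tmem63c and above only Piezo2, and the others kept their order. There, Trpm7 (22.7 to 24.8 FPKM) and Piezo1 (20.4 to 23.0 FPKM) overlapped, and the other neighbours did not.

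The loci around Tmem63a did not share its difference. Of 16 tested loci starting within 1 Mb of it, 4 were higher, 2 lower and 10 not called. Of all loci 18.6% were higher and 18.5% lower. Around Tmem63a the median log2 fold change was 0.01 and the highest value 0.24, that of the presenilin gene Psen2. Sde2, upstream of Tmem63a, had a log2 fold change of -0.03 (adjusted p = 0.674). The nearest downstream locus was Ephx1, microsomal epoxide hydrolase, at 16.3 FPKM in Nlk-KO cells and 23.3 FPKM in WT cells (log2 fold change -0.51, adjusted p = 3.93e-05). Nvl came next, with a log2 fold change of 0.00 (adjusted p = 0.933).

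Around Trpm7, 14 of 23 tested loci were higher and 0 lower by limma (14 and 0 at an unadjusted p under 0.05). Over chromosome 2 as a whole 562 of 1042 tested loci were higher and 61 lower. The median log2 fold change around Trpm7 was 0.22, beside 0.19 for the chromosome. Next to Trpm7, Usp8, a deubiquitinase that acts on endosomes, and Sppl2a, an intramembrane protease, had log2 fold changes of 0.19 (adjusted p = 0.00445) and 0.29 (adjusted p = 0.00793). The windows of the other members had medians from -0.18 around Pkd2 to 0.00 around Tmem63c. Flanking loci that were called there were Slc29a1, a nucleoside transporter gene (0.28), and 1600014C23Rik (-0.66) at Tmem63b, Zdhhc22 (0.47) and Gstz1 (-0.24) at Tmem63c, Napg (-0.20) at Piezo2, and Sparcl1 (1.52) and BC005561 (-0.25) at Pkd2. Rnf166 (-0.07) and Cdt1 (-0.08) at Piezo1, Rab26 (0.24) and Nthl1 (0.01) at Pkd1 and Txnl1 (-0.04) at Piezo2 were not called.

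**Figure D4:**
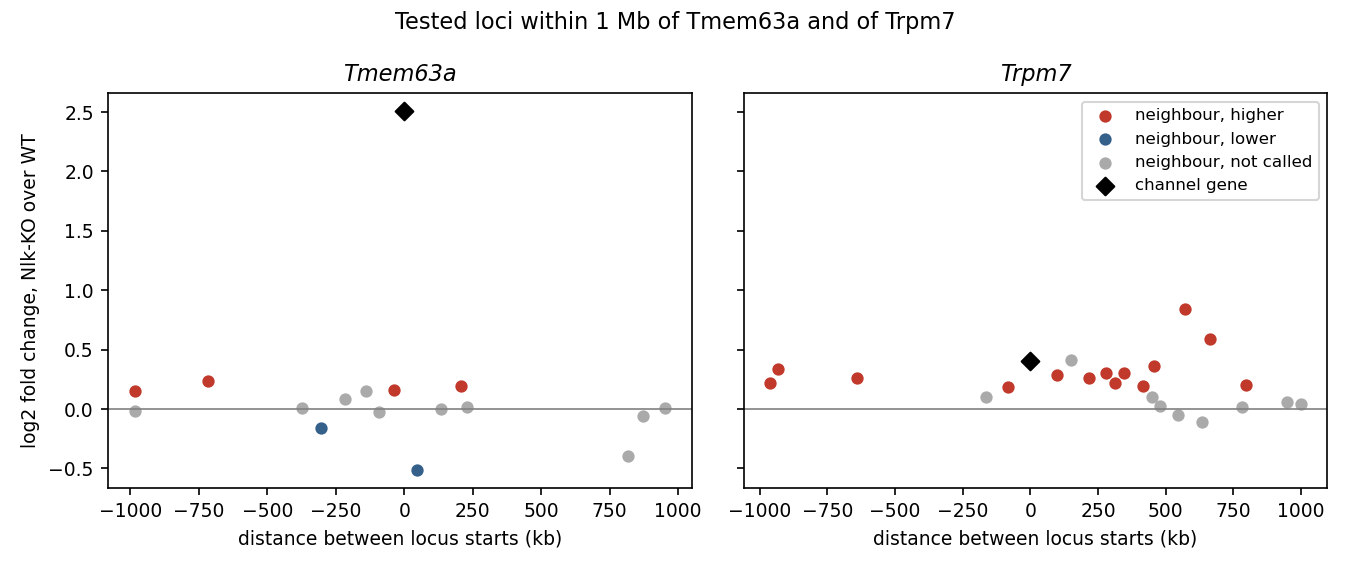
Log2 fold change in Nlk-KO over WT cells of tested loci within 1 Mb of Tmem63a (left) and of Trpm7 (right), against the distance between locus starts in kb; the black diamond is the channel gene, and neighbours are red where called higher, blue where lower and grey where not called. Tmem63a at 2.51 stands alone among 16 neighbours that reach 0.24 at most. Trpm7 at 0.41 lies among 14 higher neighbours of 23, and 562 of 1042 tested loci of its chromosome were higher.

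The loci whose profile over the 6 libraries was most like that of Tmem63a were chosen by the distance between profiles of log2(FPKM + 0.1), each centred on its mean. The closest was Apol10b, an apolipoprotein L gene, at 8.63 ± 0.519 FPKM in Nlk-KO cells and 1.57 ± 0.0329 FPKM in WT cells (SD, n = 3 each; distance 0.211). Megf10, an engulfment receptor gene, was at 4.70 ± 0.252 FPKM in Nlk-KO cells and 0.649 ± 0.0595 FPKM in WT cells (distance 0.275). Fkbp10, Elfn1 and C130060K24Rik followed at distances of 0.318, 0.330 and 0.336. All 5 had means in Nlk-KO cells above those in WT cells, with log2 fold changes of 2.38 to 2.73. With 3 libraries against 3 this likeness is mostly the difference between genotypes, and it is a description.

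Genes related to the members by family or pathway changed in both directions. The values of these lists are not relative to chromosome medians, which were 0.19 for chromosome 2 and -0.11 for chromosome 5. List counts include loci that the table merges from several genes, of which those of Tmc4 and Lrrc8a (higher) and Asic1 (lower), of 2 genes each, were called. Channels gated by stretch, swelling or acid other than the members had 16 tested genes, of which 6 were higher, 4 lower and 6 not called, with a median log2 fold change of 0.17 beside -0.01 for all loci. Kcnma1, the BK potassium channel gene, averaged 4.08 ± 0.182 FPKM in Nlk-KO cells and 2.32 ± 0.0933 FPKM in WT cells (SD, n = 3 each). Its log2 fold change was 0.79 with an adjusted p of 1.13e-04 by limma. Tmem87a and Tmem87b had log2 fold changes of 0.35 and 0.28, and both lie on chromosome 2. Asic4, of the acid-sensing family, fell to 0.841 ± 0.0512 FPKM in Nlk-KO cells, against 2.57 ± 0.227 FPKM in WT cells (log2 fold change -1.50). Without Nlk-KO replicate 2, 5 of this list were higher and 2 lower. Counts of the lists without that library stand beside 2197 higher and 2032 lower of all 12648 loci tested.

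The TMEM16 and TMC families are structural relatives of TMEM63, and of their 8 tested genes 1 was higher (the merged locus of Tmc4), 2 lower and 5 not called (median log2 fold change -0.03). Ano6, a lipid scramblase gene, averaged 19.2 ± 0.969 FPKM in Nlk-KO cells and 25.7 ± 0.339 FPKM in WT cells (log2 fold change -0.42, adjusted p = 3.40e-04), and Ano10 had a log2 fold change of -0.12. Without Nlk-KO replicate 2, 1 gene of this list was called. Of 9 tested Piezo partners 2 were higher and 3 lower (2 and 2 without Nlk-KO replicate 2). Stom, the stomatin gene of the lipid raft, had a log2 fold change of -0.48 (adjusted p = 1.52e-04) and Mtmr2, a phosphoinositide phosphatase gene, one of -0.34. Tmem150c and Tmem120a, whose products have been described as mechanosensitive, rose by 0.25 and 0.17 on the log2 scale.

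Among other polycystins and genes of polycystic disease, 3 of 14 were higher, 4 lower and 7 not called (median -0.04). Lrp5, a Wnt co-receptor gene, averaged 22.5 ± 0.576 FPKM in Nlk-KO cells and 12.4 ± 0.307 FPKM in WT cells (SD, n = 3 each), with a log2 fold change of 0.86 and an adjusted p of 6.62e-06 by limma. Glis2, a zinc finger gene, and Dnajb11, a chaperone gene of the endoplasmic reticulum, had log2 fold changes of 0.34 and 0.20, and Alg5 had a log2 fold change of -0.19. Without Nlk-KO replicate 2, 3 were higher and 1 lower of 15 tested. Of 35 primary cilium genes 5 were higher and 7 lower, with Cep290 (-0.38), Bbs9 (-0.37), Ift172 (-0.37) and Bbs1 (-0.28) the largest differences, and their median was 0.01 (4 and 6 called without Nlk-KO replicate 2).

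Of 17 magnesium transport genes, the setting in which Trpm7 works, 7 were higher, 2 lower and 8 not called (median 0.12; 6 and 2 without Nlk-KO replicate 2). Cnnm2 (0.36), Slc41a1 (0.31) and Nipa2 (0.29) rose on the log2 scale, and Mrs2, the mitochondrial magnesium channel gene, had a log2 fold change of -0.30. Of the other TRP channels 12 of 18 were below the filter, Trpm6, the closest paralogue of Trpm7, among them. Of the 6 tested, Trpm4 was higher (0.33) and Trpc7 (-1.05) and Trpm2 (-0.40) were lower. The call of Trpm4 was lost without Nlk-KO replicate 2.

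Of 30 genes of calcium stores and calcineurin 6 were higher and 9 lower (median -0.05; 5 and 8 without Nlk-KO replicate 2). Itpr3, an inositol trisphosphate receptor gene, was at 1.38, 1.14 and 1.16 FPKM in replicates 1, 2 and 3 of Nlk-KO, against 0.234, 0.188 and 0.194 FPKM in replicates 1, 2 and 3 of WT. The groups were far apart (log2 fold change 2.12, adjusted p = 9.59e-05). Nfatc2 (-1.40), Ryr1 (-1.30) and Atp2b3 (-0.67) were lower. Of 11 lysosomal ion channel genes 1 was higher, Tpcn1 (0.31), 2 were lower, Clcn3 (-0.28) and Tmem175 (-0.21), and 8 were not called, with a median of -0.01 and the same counts without Nlk-KO replicate 2. Of 15 tested genes of other hypomyelinating leukodystrophies 2 were higher and 3 lower (3 and 3 without Nlk-KO replicate 2), among them Fam126a (0.22), Polr3b (-0.49), Ufm1 (-0.18) and Aimp2 (-0.17). The shares called ran from 27.3% for lysosomal ion channels to 62.5% for channels gated by stretch, swelling or acid, beside 37.1% of all loci.

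**Figure D5:**
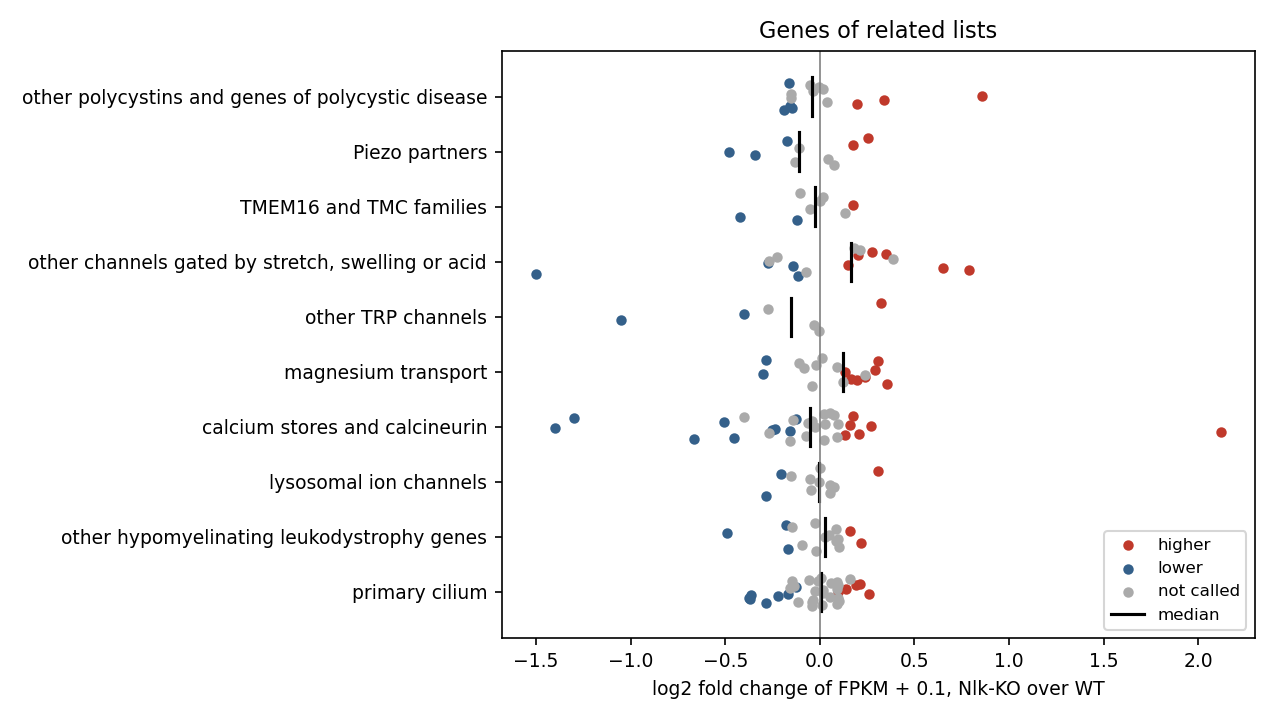
Log2 fold change of FPKM + 0.1 in Nlk-KO over WT cells of the tested genes of each related list, red where called higher, blue where lower and grey where not called, with the list's median as a black line. The medians lie between -0.15 (other TRP channels) and 0.17 (channels gated by stretch, swelling or acid), and Itpr3 at 2.12 is the farthest point to the right.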

How the data were processed

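RNA of 3 Nlk-KO and 3 WT N2a libraries was sequenced as paired ends after oligo-dT selection. According to the methods and the submitters' notes, the authors aligned reads to GRCm38 (mm10) with TopHat2 (2.1.0), quantified them with Cufflinks (2.2.1) and deposited FPKM per locus and library, normalized with Cuffnorm. No source read here names the annotation. The table also holds the authors' averages, fold changes and p-values, which were not used, and a further table of loci they selected was not used. 1 line held no values. Library columns were matched to labels by name, and 0 stayed unmapped.

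Log2(FPKM + 0.1) was fitted with limma (3.58.1, R 4.3.3, trended prior) for 12667 loci whose mean reached 0.5 FPKM, as Nlk-KO against WT, with Benjamini-Hochberg adjustment over all of them. The script was tested on simulated data with independent noise and no effects of library scale, clone or chromosome. That run does not measure error rates in these data. Locus starts are printed 1-based, since 43.1% of file starts plus 1 equalled the RefSeq start. Members and lists were chosen with earlier results of these data known. Named were all members, up to 4 called single-symbol genes per list by size of change, the tested loci next to each member (2 on each side of Tmem63a) and the 5 loci most like Tmem63a with a mean of at least 1 FPKM. Mbp and the other markers of Nlk-KO replicate 2, Psen2 and Trpm6 were named after their values were seen. Some genes that this rule or the marker lists hold are not reported here. Relative depth was the mode of the ratios to WT replicate 1 of low loci. Alternatives were the pseudocount, the filter, the scaling between libraries, the prior variance, removal of chromosome medians, a required change of more than 1.2-fold, a replicate block and leaving out each library. List counts without Nlk-KO replicate 2 were added after its markers were seen.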

Additional observations from a re-analysis of the deposited data

How the results depend on the processing

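Tmem63a kept its direction in every alternative. Its log2 fold change was 2.04 with a pseudocount of 1 FPKM, 2.57 with one of 0.01 FPKM and 2.57 with equal sums per library over loci with a symbol, and 2.47 to 2.54 when 1 library was left out. The difference of its share of the Tmem63 sum ran from 15.7 to 16.1 percentage points when 1 library was left out. Rescaling to the same sum left no member but Tmem63a called, with 568 loci higher and 355 lower. Requiring more than 1.2-fold did the same, with 618 higher and 451 lower. Counts of members here include Tmem63a, whose call is not a test because the set was chosen for it. The calls of Tmem63b (adjusted p = 0.541 and 1.00) and Trpm7 (0.204 and 0.0908) ended with equal sums and with the required 1.2-fold. Their log2 fold changes under equal sums were 0.34 and 0.47, beside 0.28 and 0.41. With libraries rescaled by the median ratio both calls held (adjusted p = 5.96e-04 and 6.51e-04 from limma). Sums of FPKM over all loci ran from 2506293 in Nlk-KO replicate 3 to 8667701 in Nlk-KO replicate 1. Loci at 1 FPKM or more ran only from 11441 in Nlk-KO replicate 1 to 11608 in WT replicate 3. The sums thus varied far more between libraries than the number of such loci. The call of Piezo1 ended in 10 of 16 alternatives, among them no filter (0.0600) and a constant prior variance (0.0693). When 1 library was left out 3 or 4 members, 1851 to 2199 loci higher and 1681 to 2340 lower were called. No call of Tmem63c, Pkd1 or Pkd2 arose in any alternative, and with a filter at 5 FPKM Tmem63c and Pkd1 were not tested.

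The values showed no sign that replicate numbers pair the libraries, though they cannot show how the libraries were prepared. Deviations from the group means correlated at 0.0374, 0.0599 and -0.132 for same-numbered libraries, across loci, and not every library correlated best with its own number (Nlk-KO replicate 1 did so with WT replicate 3, at 0.188). With the replicate number as a block, 3 members were called, Tmem63a counted (Piezo1 ended, adjusted p = 0.0784). There 2065 loci were higher and 1973 lower, and the log2 fold change of Tmem63a stayed at 2.51. The call of no other member changed. The limits are 3 libraries a group, unknown read totals and unknown clone of origin.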

Other observations

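Brain cell markers stood out in Nlk-KO replicate 2 beyond Mbp. Mobp, of compact myelin, was at 0.0934, 1.31 and 0.0539 FPKM in replicates 1, 2 and 3 of Nlk-KO and at 0.0217 to 0.0404 FPKM in WT libraries. Gfap, of astrocytes, was at 0.0349, 0.437 and 0.0705 FPKM in replicates 1, 2 and 3 of Nlk-KO and at 0.0225 to 0.0783 FPKM in WT libraries. Cnp, a myelin enzyme gene, did not share this pattern, at 10.2, 10.3 and 10.8 FPKM in replicates 1, 2 and 3 of Nlk-KO and at 7.75, 8.22 and 7.45 FPKM in replicates 1, 2 and 3 of WT. Endothelial, macrophage and epithelial markers other than Cd68, Pecam1 and Krt8 reached at most 0.197 FPKM, in Tek. The row of Cd68 is a merged locus of 3 genes and gives no level for it. Thy1, from the fibroblast list and also made by neurons, was at 0.0758, 0.683 and 0.0144 FPKM in replicates 1, 2 and 3 of Nlk-KO and at 0.0184, 0.0170 and 0 FPKM in replicates 1, 2 and 3 of WT. The 6 fibroblast markers summed to 0.301, 0.892 and 0.154 FPKM in these Nlk-KO libraries and to 0.101 to 0.194 FPKM in WT libraries. The source of these transcripts was not tested.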
